A study of Mus musculus with 24 samples.

Results

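Mitochondrial ribosomal proteins are described here as 69 gene-level transcript clusters of a mouse exon array, out of 23332 clusters in all. They were chosen by name alone: a cluster was a member when the platform annotation gave it exactly 1 symbol and that symbol was Mrpl or Mrps followed by a digit. The 69 clusters carried 68 symbols, since Mrpl48 had 2 clusters, and 3 further clusters that listed such a symbol beside others were left out. The array data came from 4 groups of 3 arrays each. These were cerebellum of wild-type mice, cerebellum of Usp15-deficient mice, and skeletal muscle of both genotypes. Usp15 encodes a deubiquitinating enzyme that removes ubiquitin from its substrates. All mice were C57BL/6 and 1 month old, and the sources used here do not give which part of Usp15 was altered, the sex, which muscle was taken, or whether the 3 arrays of a group came from 3 animals. The p-values below therefore measure only the spread between arrays, which may be technical. Values are log2 signals as deposited, so a difference of 1 is a 2-fold change.

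The mitochondrial ribosome translates the few proteins that mitochondrial DNA still encodes, all of them subunits of the respiratory chain or of ATP synthase. Its ribosomal RNAs come from mitochondrial DNA, whereas every one of its proteins is encoded in the nucleus, made in the cytosol and imported. Mrpl genes are named for the large subunit, which joins amino acids, and Mrps genes for the small subunit, which reads the messenger RNA. Some of these proteins have a bacterial counterpart and others are found only in mitochondrial ribosomes. Skeletal muscle is known for its dense mitochondria, and the cerebellum for its very many small granule neurons. By known structure, 46 of the 69 clusters belonged to the large subunit, Mrps30 and Mrps18a among them despite their names, and 22 to the small subunit. Mrps36, now known as a component of the alpha-ketoglutarate dehydrogenase complex, was counted in neither.

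The promoters of the members were read from RefSeq (GRCm38.p6) as a feature that the name rule did not use. A promoter here is a window of 300 bases, 250 before and 50 after an annotated start, and 59 of the 68 symbols had one, 65 windows in all. Letters known as binding motifs of 3 activators of nuclear genes for mitochondria were searched on both strands: NRF1, the ETS family to which GABPA belongs (CCGGAAG), and YY1 (AAGATGGC). YY1 letters were found in 11 of the 65 windows (16.9%), beside 2.75% of all 32851 windows and 3.37% of the 14927 windows of genes with a single-symbol cluster. ETS letters were found in 20 (30.8%), beside 8.86% and 12.5%, and NRF1 letters in 11 (16.9%), beside 4.6% and 7.31%. At least 1 of the 3 motifs was present in 35 windows (53.8%), beside 14.7% and 20.8%. The median GC content was 58.3% for the members, 52.7% for all windows and 58.3% for the genes with a cluster. No matches of different motifs overlapped in a member window. A match is a description of letters and not a measured binding site.

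In 7 of the 11 windows with the YY1 letters (63.6%) they lay after the annotated start and on the sense strand, as in 284 of the 903 such windows among all promoters (31.5%) and in 216 of the 503 among genes with a single-symbol cluster (42.9%). The 50 bases that follow the start are shown for these 7 genes, 5′ to 3′, with the YY1 letters in capitals.
Mrpl37 (chr4:107066817-107066866, - strand): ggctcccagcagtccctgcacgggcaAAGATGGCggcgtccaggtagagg
Mrpl35 (chr6:71823735-71823784, - strand): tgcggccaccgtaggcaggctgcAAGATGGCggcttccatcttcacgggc
Mrps7 (chr11:115604140-115604189, + strand): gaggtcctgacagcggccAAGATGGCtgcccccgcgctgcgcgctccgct
Mrps24 (chr11:5707652-5707701, - strand): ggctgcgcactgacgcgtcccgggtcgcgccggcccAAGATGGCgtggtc
Mrps18a (chr17:46111004-46111053, + strand): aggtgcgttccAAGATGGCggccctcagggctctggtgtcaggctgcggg
Mrps27 (chr13:99344786-99344835, + strand): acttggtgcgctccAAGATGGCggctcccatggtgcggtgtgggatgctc
Mrpl49 (chr19:6057706-6057755, - strand): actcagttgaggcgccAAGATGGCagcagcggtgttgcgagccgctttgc
The first 5 of these genes were higher in muscle in both genotypes, and Mrps27 and Mrpl49 were not past the threshold in either in the values as deposited, as described below.

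NRF1 letters are shown for Mrpl12 and Mrpl32, whose clusters were called higher in muscle, and for Mrpl30, whose cluster was called lower in the values as deposited, stood at 0.04 after centring, and had a probe set median 1.63 higher. The 50 bases printed for each lie before the start, with the match in capitals.
Mrpl12 (chr11:120484537-120484586, + strand): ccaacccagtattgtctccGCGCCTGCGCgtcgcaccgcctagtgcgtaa
Mrpl32 (chr13:14613088-14613137, - strand): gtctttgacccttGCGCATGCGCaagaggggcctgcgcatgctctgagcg
Mrpl30 (chr1:37890377-37890426, + strand): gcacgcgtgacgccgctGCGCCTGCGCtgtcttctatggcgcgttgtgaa
ETS letters came as pairs in several windows. Those of Mrpl43, Mrpl52 and Mrpl58 and 1 window of Mrps16 held 2 matches each. Mrps16 is not shown, and its cluster was called higher only in Usp15-deficient mice (0.30, against 0.13 in wild-type mice). Of the 20 windows with ETS letters, 11 belonged to members not called higher in both genotypes. Among these were Mrpl33 and Mrps26, whose clusters were called lower in the values as deposited. Mrpl43, Mrpl52 and Mrpl58 are shown with Mrpl34, which had 1 match, and all 4 of these shown were called higher in both genotypes. Each stretch has 70 bases, of which the last 10 follow the start, with CCGGAAG or its reverse complement in capitals.
Mrpl43 (chr19:45006433-45006502, - strand): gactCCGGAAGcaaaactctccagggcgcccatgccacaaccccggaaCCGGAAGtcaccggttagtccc
Mrpl52 (chr14:54426849-54426918, + strand): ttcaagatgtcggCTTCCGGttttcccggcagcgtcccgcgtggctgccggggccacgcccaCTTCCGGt
Mrpl58 (chr11:115403692-115403761, + strand): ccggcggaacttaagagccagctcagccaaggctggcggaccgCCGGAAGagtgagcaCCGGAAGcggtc
Mrpl34 (chr8:71464866-71464935, + strand): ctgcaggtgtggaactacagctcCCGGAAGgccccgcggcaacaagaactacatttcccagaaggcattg

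The windows of 2 members overlapped in part. Mrps11 and Mrpl46 lie head to head on chromosome 7, Mrps11 on the plus strand from 78783131 and Mrpl46 on the minus strand from 78783089, so that their annotated starts are 42 bases apart. The last 200 bases of the Mrps11 window are shown, of which the final 50 follow its start. The capitals mark the YY1 letters on the opposite strand, which lie 59 to 66 bases into the sense strand of Mrpl46, beyond the end of its own window.
Mrps11 (chr7:78782981-78783180, + strand): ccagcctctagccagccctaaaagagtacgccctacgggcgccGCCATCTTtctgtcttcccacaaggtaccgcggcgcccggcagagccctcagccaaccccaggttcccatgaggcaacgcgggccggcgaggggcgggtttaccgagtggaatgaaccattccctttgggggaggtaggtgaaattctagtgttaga
As deposited, both genes had small tissue differences, 0.06 for Mrps11 and 0.21 for Mrpl46 in wild-type arrays, neither past the threshold. Both were called higher in wild-type muscle with quantile normalization (0.45 and 0.58) and with each array centred on its median (0.74 and 0.89).

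Depth cannot be given for arrays, and their number limits the precision. The median over all clusters was 6.09 to 6.17 on the cerebellum arrays and 5.41 to 5.51 on the muscle arrays, so that the median cluster was 0.62 lower in muscle than in cerebellum in both genotypes. How the authors normalized the arrays is unknown, and tissue differences are therefore also given above this median and after 2 further scalings. The labelled tissues carried their markers. All 6 fast muscle fibre clusters were higher in wild-type muscle, with a median of 7.42, and all 8 granule neuron clusters and all 5 Purkinje cell clusters were lower, with medians of -6.14 and -6.18. Usp15 itself read 7.63, 7.51 and 7.66 in wild-type cerebellum and 7.08, 6.99 and 7.19 in Usp15-deficient cerebellum. In muscle it read 8.43, 8.92 and 8.65 in wild-type arrays and 6.73, 6.81 and 6.86 in Usp15-deficient arrays. The genotypes did not overlap in either tissue, although limma's adjusted p was 0.996 in cerebellum and 0.273 in muscle.

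Members spanned 1.09 to 9.94, and 57 of the 69 were over 6 on all 12 arrays. The only member under 5 throughout was the second cluster of Mrpl48. In wild-type mice 30 members were higher in skeletal muscle than in cerebellum (limma, Benjamini-Hochberg adjusted over all 23332 clusters, threshold 0.05), where 13.1% of all clusters were called higher. Another 7 members were lower, where 54.6% of all clusters were called lower, and 32 did not pass the threshold. The median member was 0.40 higher in muscle, which is 1.02 above the median of all clusters. The difference was positive in 51 members and negative in 18. Muscle and cerebellum did not overlap in 31 members that were higher in muscle (14.7% of all clusters) and 9 that were lower (57.8%). In these bulk samples, a different share of a cell type and a different amount of RNA per cell cannot be told apart.

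The Usp15-deficient arrays, none of which entered the wild-type comparison, gave 35 members higher in muscle (12.9% of all clusters) and 10 lower (57.0%). The median member was 0.36 higher in muscle, 0.98 above the median of all clusters, and the tissues did not overlap in 37 members that were higher (14.6%) and 14 that were lower (60.2%). All 30 members called higher in wild-type mice and all 7 called lower were called in the same direction here. On the whole array, 2683 of the 3048 clusters called higher in wild-type mice and 11388 of the 12738 called lower were also called so here. The clusters called so in both genotypes were 11.5% and 48.8% of all. The sign of the tissue difference was shared by 65 of the 69 members, beside 94.5% of all clusters. Across the 69 members the differences of the genotypes correlated at r = 0.969, and across all clusters at r = 0.962, as a description over genes measured on the same arrays. The members called here alone were Mrpl16, Mrps31, Mrpl9, Mrpl22 and Mrps16, with differences of 0.30 to 0.72, and Mrps35, Mrpl17 and Mrps12, with differences of -0.51 to -0.26. Their wild-type differences had the same signs in the values as deposited, where the median of all clusters was -0.62.

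**Figure D1:**
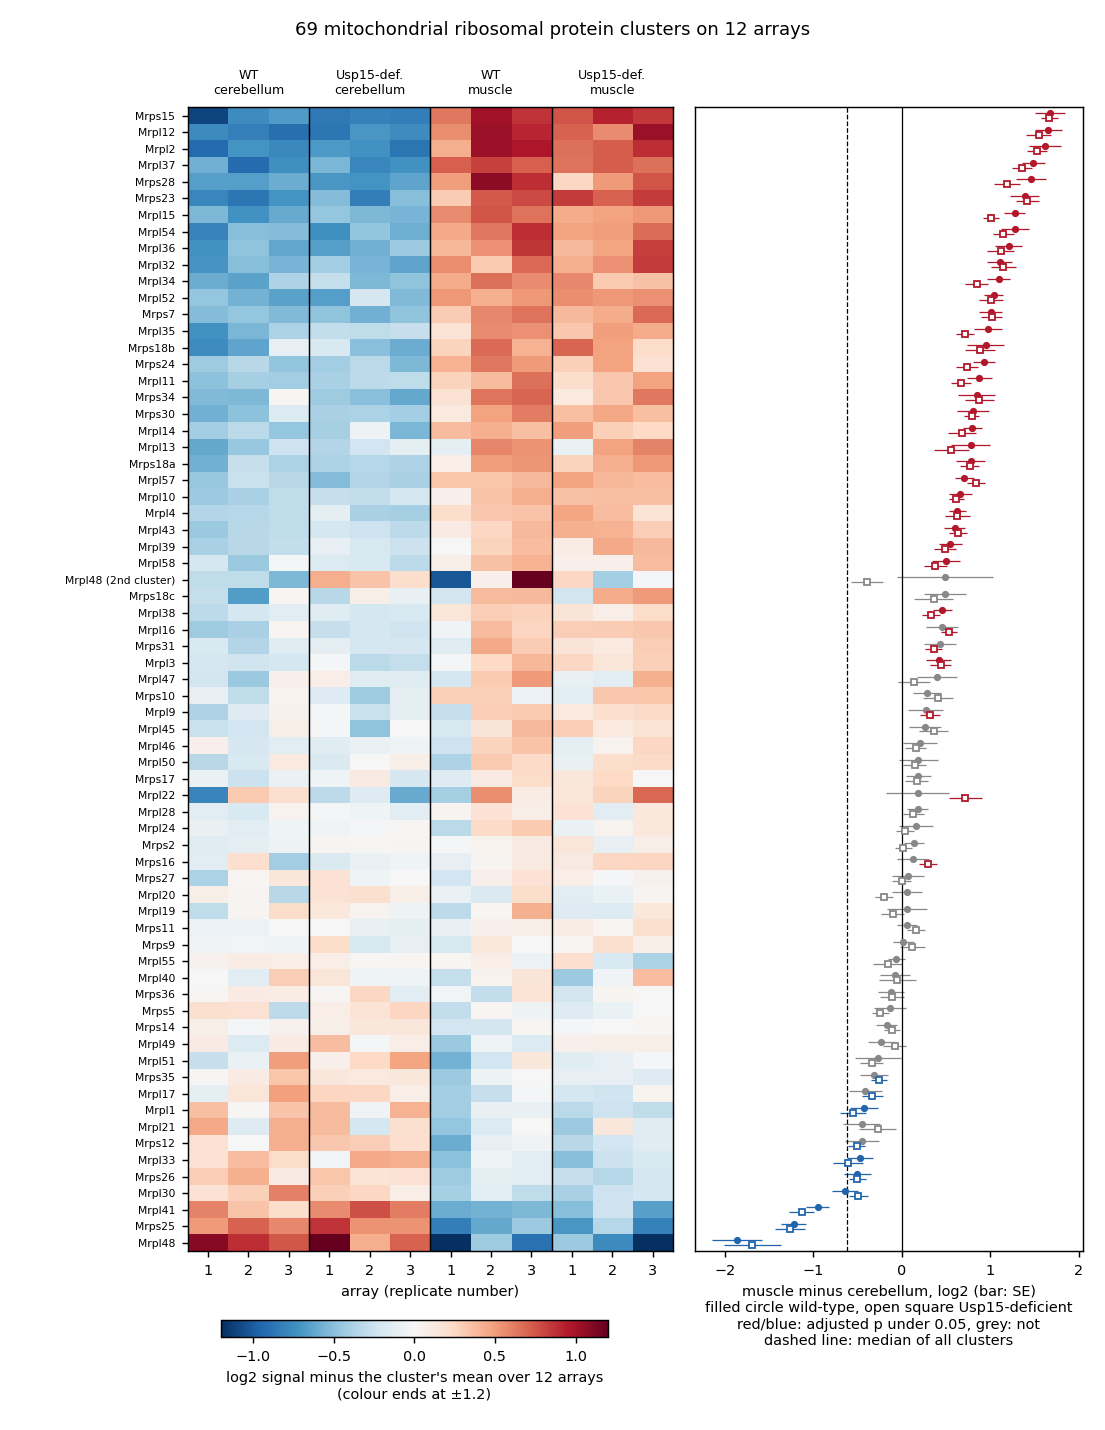
Left, log2 signal of each of the 69 clusters on the 12 arrays, shown as the deviation from the cluster's mean over all arrays, with replicate numbers under each group. Right, muscle minus cerebellum with its standard error for wild-type (filled circles) and Usp15-deficient arrays (open squares), coloured where the adjusted p was under 0.05; the dashed line marks the median of all clusters at -0.62, and most members lie to its right.

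Mrps15, the counterpart of a bacterial small-subunit protein that binds ribosomal RNA, had the largest difference in favour of muscle. It read 7.34, 7.69 and 7.77 in wild-type cerebellum and 9.08, 9.45 and 9.31 in wild-type muscle. In Usp15-deficient mice the cerebellum arrays read 7.59, 7.63 and 7.62 and the muscle arrays 9.20, 9.37 and 9.29. All 6 muscle arrays lay above all 6 cerebellum arrays, by 1.68 ± 0.17 (SE, n = 3 per group) in wild-type mice, a 3.2-fold difference with a limma adjusted p of 0.000227, and by 1.67 ± 0.10 in Usp15-deficient mice (adjusted p = 2.83e-05).

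Mrpl12 forms the flexible stalk of the large subunit that recruits translation factors, and its human counterpart has also been reported to bind the mitochondrial RNA polymerase. It read 8.14, 8.09 and 8.0 in wild-type cerebellum and 9.47, 9.94 and 9.82 in wild-type muscle, where the first array was the lowest. The Usp15-deficient arrays read 8.04, 8.21 and 8.15 in cerebellum and 9.62, 9.48 and 9.94 in muscle. Muscle and cerebellum did not overlap, and the differences were 1.66 ± 0.15 (adjusted p = 0.000161, limma) and 1.55 ± 0.14 (adjusted p = 0.000204).

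The 2 members that anchor this stalk to the ribosome were higher by less. Mrpl11 read 6.65, 6.74 and 6.72 in wild-type cerebellum and 7.41, 7.52 and 7.80 in wild-type muscle, a difference of 0.88. Mrpl10 read 7.21, 7.26 and 7.34 against 7.71, 7.99 and 8.08, a difference of 0.66. Both were also called in Usp15-deficient mice, at 0.67 and 0.62, and neither overlapped between tissues.

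Mrpl2, the counterpart of a bacterial protein next to the peptidyl transferase center, where amino acids are joined, read 6.42, 6.63 and 6.58 in wild-type cerebellum. It read 7.79, 8.38 and 8.32 in wild-type muscle, 1.62 ± 0.18 higher (adjusted p = 0.000419, limma). Mrpl37, found only in mitochondrial ribosomes, read 8.03, 7.68 and 7.87 against 9.32, 9.43 and 9.32. Its muscle arrays were the most alike of these genes, and the difference was 1.49 ± 0.13 (adjusted p = 0.00013, limma), the smallest adjusted p among the members in wild-type mice.

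Of the small subunit, Mrps28 read 6.56, 6.56 and 6.62 in wild-type cerebellum and 7.72, 8.29 and 8.11 in wild-type muscle, 1.46 higher, and in Usp15-deficient muscle it read 7.47, 7.73 and 7.97, 1.19 higher than in the cerebellum of those mice. Mrps23 read 6.90, 6.81 and 6.96 against 7.98, 8.41 and 8.47 and was 1.39 higher. In both, the first wild-type muscle array was the lowest of the 3 and still lay above every cerebellum array. The remaining members of the 10 with the largest wild-type differences were all of the large subunit. They were Mrpl15 (1.28), the counterpart of a bacterial protein that organizes the ribosomal RNA, Mrpl54 (1.28), Mrpl36 (1.21), one of the smallest ribosomal proteins, and Mrpl32 (1.11), which in mouse and yeast is cut to its mature form by the m-AAA protease in the mitochondrial matrix. In Usp15-deficient mice these 4 differences were 1.01, 1.15, 1.12 and 1.15. All 10 had fold differences between 2.16 and 3.2 in wild-type mice.

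By subunit, 23 of 46 large-subunit members were higher in wild-type muscle and 5 lower, with a median difference of 0.46, and 7 of 22 small-subunit members were higher and 2 lower, with a median of 0.17. In Usp15-deficient mice the large subunit had 26 higher and 6 lower (median 0.41), and the small subunit 9 and 4 (median 0.24). Members with a bacterial counterpart (40 clusters) had 17 higher and 3 lower in wild-type mice, with a median of 0.35, and mitochondria-specific members (28 clusters) 13 and 4, with a median of 0.45. These counts are a description, and the differences between the classes were not tested.

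Members with a role beyond structure, or with a known place at a working site, ran from -0.47 for Mrpl33 to 1.66 for Mrpl12 in wild-type mice. Mrpl58, a peptidyl-tRNA hydrolase that releases stalled chains and sits in the large subunit, was 0.50 higher in wild-type muscle (adjusted p = 0.0291, limma) and 0.38 higher in Usp15-deficient muscle. Mrps30 was 0.81 higher, with 6.21, 6.29 and 6.62 in wild-type cerebellum and 6.90, 7.27 and 7.40 in wild-type muscle. Mrpl3, mutated in a human cardiomyopathy, read 8.10, 8.06 and 8.09 against 8.28, 8.54 and 8.70 and was 0.42 higher.

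The 3 paralogs that share the name of bacterial small-subunit protein S18 did not pass the threshold together in the values as deposited. Mrps18a was 0.78 higher in wild-type muscle and Mrps18b 0.95 higher, each called in both genotypes. Mrps18c read 7.57, 7.19 and 7.88 in wild-type cerebellum and 7.64, 8.24 and 8.25 in wild-type muscle. These arrays overlapped, and its difference of 0.49 ± 0.24 did not pass (adjusted p = 0.11, limma). Mrps18c did pass in wild-type mice with quantile normalization (0.70, adjusted p = 0.0332, limma) and after centring (1.17, adjusted p = 0.0054, limma).

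Mrps12, the counterpart of the bacterial decoding-site protein in which streptomycin resistance arises, read 6.31, 6.13 and 6.56 in wild-type cerebellum and 5.53, 6.03 and 6.08 in wild-type muscle. Its difference of -0.45 was not past the threshold (adjusted p = 0.0768, limma), whereas that of -0.51 in Usp15-deficient mice was (adjusted p = 0.00498), and both turned positive under the other scalings, to 0.10 to 0.22. Mrps5, whose expression has been linked to lifespan in mice, differed by -0.13 (0.24 with quantile normalization and 0.54 after centring), and Mrps16, mutated in a human mitochondrial translation disorder, by 0.13, neither called in wild-type mice. Mrpl45, which lies at the tunnel exit near the inner membrane, differed by 0.26 and Mrps27, an RNA-binding repeat protein, by 0.07, with tissues overlapping. With quantile normalization and after centring, Mrpl45 stood at 0.74 and 0.93 and Mrps27 at 0.70 and 0.74, all past the threshold. The members with the smallest wild-type differences were Mrps9 (0.02), Mrpl19, Mrps11 and Mrpl20 (0.06 each) and Mrpl55 (-0.06, positive under both other scalings). Since the median cluster was 0.62 lower in muscle, a difference near 0 was still above that median.

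Only Mrpl48, Mrps25, Mrpl41 and Mrpl30 lay below the median of all clusters in wild-type mice. Mrps25, a small-subunit protein mutated in a human mitochondrial encephalomyopathy, read 7.30, 7.49 and 7.36 in wild-type cerebellum and 5.96, 6.17 and 6.35 in wild-type muscle. Usp15-deficient arrays read 7.65, 7.32 and 7.32 against 6.09, 6.44 and 5.97. The tissues did not overlap in either genotype, and the differences were -1.22 ± 0.14 (adjusted p = 0.000425, limma) and -1.26 ± 0.17 (adjusted p = 0.000822). It was the only one of the 7 lower members called lower in both genotypes with quantile normalization (-0.81 and -0.80) and with each array centred on its median (-0.55 and -0.59).

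Mrpl41, a large-subunit protein also reported to bind an anti-apoptotic protein, read 7.55, 7.30 and 7.17 in wild-type cerebellum and 6.36, 6.39 and 6.42 in wild-type muscle. Its differences were -0.95 ± 0.13 (adjusted p = 0.000989, limma) for wild-type mice and -1.13 ± 0.14 for Usp15-deficient ones. After centring, the wild-type difference was -0.27 and no longer past the threshold (adjusted p = 0.149). The main cluster of Mrpl48, another large-subunit protein, read 6.63, 6.42 and 6.28 against 4.0, 5.11 and 4.64, a difference of -1.86 ± 0.28 (adjusted p = 0.00139, limma). With quantile normalization it was -1.17 in wild-type mice and, in Usp15-deficient mice, -0.96 with an adjusted p of 0.0509. The other lower members were Mrpl30 (-0.64), Mrps26 (-0.50), Mrpl33 (-0.47) and Mrpl1 (-0.43), and Mrpl30, Mrps26, Mrpl33 and Mrpl1 had positive wild-type differences after centring, of 0.04, 0.17, 0.20 and 0.24, and with quantile normalization Mrps26 stood at 0.0 and Mrpl33 at 0.11.

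The scaling thus changed how many members were called. With quantile normalization, which put the median of all clusters at 0.01, 48 members were higher in wild-type muscle (25% of all clusters) and 4 lower (21.9%), and in Usp15-deficient mice 49 higher (25.7%) and 2 lower (23.2%). With each array centred on its median, 54 were higher (28.9%) and 2 lower (20.4%), and in Usp15-deficient mice 56 higher (29.2%) and 3 lower (21.5%). All 30 members called higher in both genotypes kept that call under both scalings, and of the 7 called lower in both, 2 did so under each.

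One wild-type muscle array stood apart among the members. Replicate 1 gave the lowest of the 3 wild-type muscle values in 62 of the 69 members, replicates 2 and 3 in 5 and 4, ties counted for each. Taken as deviations from each cluster's mean over the 12 arrays, the member medians were -0.04, 0.29 and 0.34 in wild-type muscle, while those of all clusters were -0.35, -0.27 and -0.27. In Usp15-deficient muscle the member medians were 0.14, 0.21 and 0.24, and in cerebellum they lay between -0.30 and -0.08. Without wild-type muscle replicate 1, 37 members were higher and 4 lower. The muscle arrays also differed in markers of slow fibers. The median deviation of 4 slow fiber clusters was -1.75 and -1.67 on wild-type muscle replicates 1 and 2, and 2.95 on replicate 3, beside 1.91, 2.40 and 2.22 on the Usp15-deficient muscle arrays. The 6 adipocyte clusters stood at 2.44 on Usp15-deficient muscle replicate 2 and at -0.14 to 1.17 on the other muscle arrays. Without wild-type muscle replicate 3, 27 members were higher and 6 lower, and without Usp15-deficient muscle replicate 2, 32 and 8. The part of fiber type and fat in the members' values was not tested further.

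Other genes that act with the mitochondrial ribosome were set beside the members. Of 54 clusters of nuclear subunits of oxidative phosphorylation, 46 were higher in wild-type muscle and 3 lower, with a median difference of 1.23. This list included Cox8b (6.53 higher) and Cox6a2 (5.43 higher), both muscle forms of cytochrome c oxidase subunits, and Cox6a1, the form widely used outside muscle, which fell by 1.87 from cerebellum to muscle. Of 15 clusters of matrix enzymes and other genes that track mitochondrial mass, 14 were higher and 0 lower, with a median of 1.54, Slc25a4 (2.35), the muscle ADP/ATP carrier, and Vdac1 (2.16), an outer membrane channel, leading. The median difference above that of all clusters was 2.16 for this list and 1.85 for the oxidative phosphorylation subunits, beside 1.02 for the mitochondrial ribosomal proteins.

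Genes that serve translation in mitochondria without being ribosomal proteins had smaller medians than the members in the values as deposited. Of 13 translation factors, 5 were higher and 1 lower in wild-type muscle (median 0.15), with Taco1 (1.04), a translational activator of a cytochrome c oxidase subunit, and Gfm2 (0.99), a ribosome recycling factor, higher and Mtfmt (-0.66), which formylates the initiator tRNA, lower. The sign of Mtfmt turned after centring, to 0.02. Of 22 clusters for assembly and rRNA modification, 4 were higher and 5 lower (median -0.02), with Tfb1m (0.82), a methyltransferase of the small-subunit rRNA, and Dhx30 (-0.90), an RNA helicase, among them. Of 20 aminoacyl-tRNA synthetases and related enzymes of mitochondria, 4 were higher and 3 lower (median -0.07). Gatc (0.94) and Kars (0.72) were the highest, and Pars2 (-0.73) and Hars2 (-0.48) the lowest. With quantile normalization Pars2 stood at 0.02 and Hars2 at 0.11. Of 22 genes for transcription and RNA stability, 6 were higher and 6 lower (median 0.03), with the elongation factor Tefm at 2.16 and the single-strand DNA-binding protein Ssbp1 at -1.29.

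Of 7 further genes of the mitochondrial ribosome listed under other names, 3 had a single-symbol cluster, among them Chchd1 (1.16) and Gadd45gip1 (0.66), and these 3 were higher in both genotypes, with a median of 0.66. Of 20 clusters listed by name as cytosolic ribosomal proteins, 6 were higher and 6 lower (median -0.01). The name rule was Rpl or Rps followed by a digit, without kinases of the Rps6k family. It also took in symbols that merely begin alike, such as Rps19bp1 (-0.40) and Rpl7l1 (0.15). The clusters of largest difference in this list were Rpl3l (5.11 higher), a form used in striated muscle, Rps27l (3.41 higher) and Rpl37 (-2.12). In Usp15-deficient mice the medians of these lists were 1.19 for oxidative phosphorylation, 1.57 for matrix and mass, -0.04 for translation factors, -0.09 for assembly, -0.10 for the synthetases, -0.07 for transcription and -0.05 for cytosolic ribosomal proteins. Scaling moved the lists near 0: with quantile normalization and with centring the wild-type medians were 0.69 and 0.83 for translation factors, 0.55 and 0.65 for assembly, 0.49 and 0.61 for the synthetases, 0.50 and 0.71 for transcription and 0.59 and 0.66 for cytosolic ribosomal proteins, so that none was negative, beside 0.73 and 1.08 for the members. The differences between lists are descriptions.

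**Figure D2:**
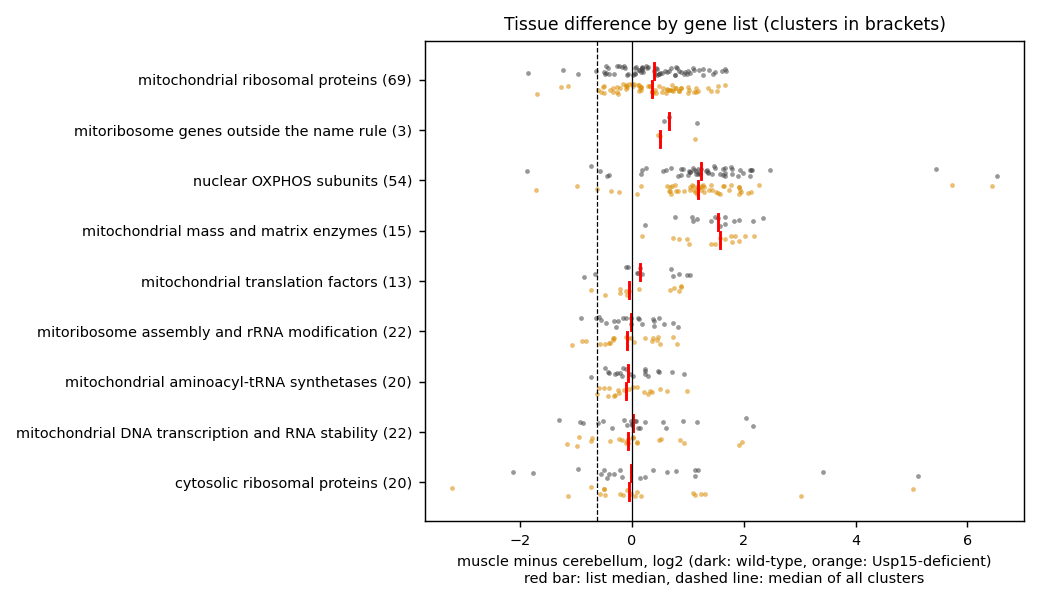
Muscle minus cerebellum on the log2 scale for each cluster of the named lists in wild-type (dark) and Usp15-deficient arrays (orange), with the list median as a red bar and the median of all clusters (-0.62) as a dashed line. The wild-type median was 0.40 for the mitochondrial ribosomal proteins, 1.23 for oxidative phosphorylation subunits and -0.01 for cytosolic ribosomal proteins, a list made by name.

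The same 12 arrays were also deposited at the exon level, where a probe set reports an exon or a part of one. The 66 member symbols with probe sets had 511 of them, 2 to 14 each. In wild-type mice 184 were higher in muscle (13.2% of all 229581 probe sets) and 29 lower (35.4%), and in Usp15-deficient mice 195 were higher (13.4%) and 37 lower (39.1%). At least 1 probe set was called higher in 45 of the 66 symbols (29.1% of 16380 symbols) and at least 1 lower in 23 (72.4%), and 12 symbols had probe sets called in both directions. Every probe set was called higher for Mrps28, Mrpl34 and Mrps18b, with wild-type differences of 0.92 to 1.81, 1.15 to 1.63 and 0.71 to 2.32.

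Taking the median of a symbol's probe sets on each array in place of its cluster, 38 of the 66 symbols were higher in wild-type muscle (16.3% of 16380 symbols) and 3 lower (50.4%), with a median difference of 0.60 beside -0.53 for all symbols. In Usp15-deficient mice 34 were higher (15.8%) and 4 lower (51.0%), with a median of 0.42 beside -0.52. Among the members with 1 cluster, 4 of 65 had a wild-type difference at least 1 away from that of their probe sets, beside 1.4% of 12728 such symbols on the array. The median distance was 0.16 for members and 0.15 for all. For Mrpl10, 0 of 8 probe sets were called in wild-type mice, with differences of 0.10 to 0.56 below the 0.66 of its cluster. Their median was called higher (0.52, adjusted p = 0.0294, limma).

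**Figure D3:**
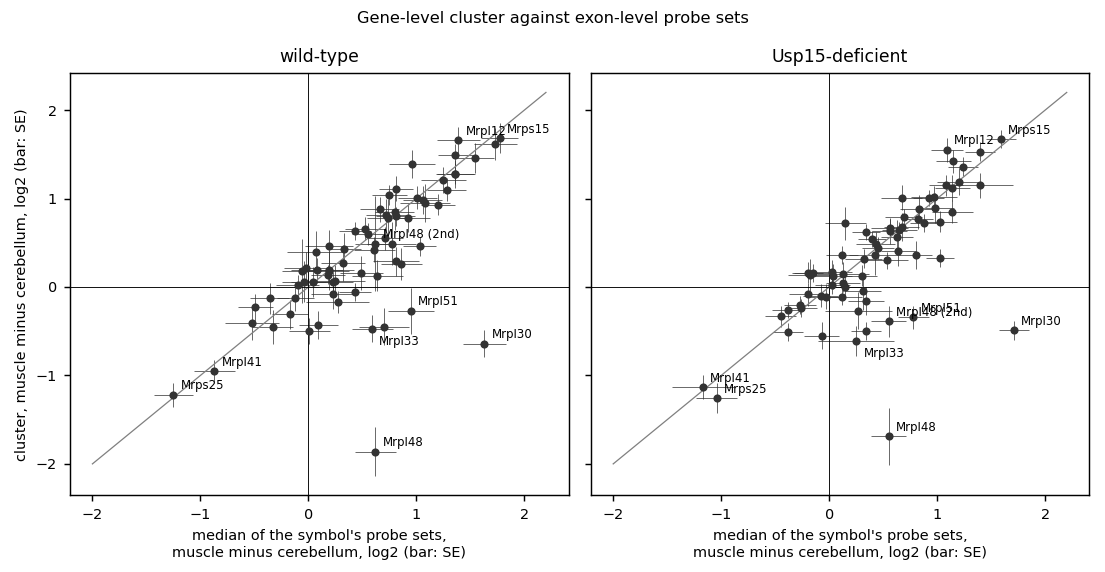
Muscle minus cerebellum of each member's gene-level cluster (vertical axis) against that of the median of its exon-level probe sets (horizontal axis), both in log2 with standard errors, for wild-type and Usp15-deficient arrays, and the line of equality. Most members lie near the line, and in wild-type arrays Mrpl30 lies at -0.64 by its cluster and 1.63 by its probe sets.

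The deposited cluster value of 5 of these 65 members was that of a single probe set on all 12 arrays, within 0.01, as it was for 478 of the 12728 symbols (3.76%). Mrpl51, a large-subunit protein, was one of them. Its cluster read 6.85, 7.04 and 7.62 in wild-type cerebellum and 6.56, 6.89 and 7.26 in wild-type muscle, overlapping, with a difference of -0.27, and matched the probe set PS5608998. Each of its other 5 probe sets was called higher in wild-type muscle, by 1.11 to 3.67. PS5237132, the brightest, read 9.25, 9.64 and 9.24 against 10.98, 11.09 and 11.13, and in Usp15-deficient mice 9.34, 9.65 and 9.55 against 10.96, 10.94 and 11.11.

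Mrps36 was another, its cluster matching PS4958373 at -0.12, which turned to 0.24 with quantile normalization and 0.55 after centring. Of its 9 probe sets 4 were called higher in wild-type muscle, among them PS4510564, which read 7.19, 7.21 and 7.58 in cerebellum and 8.73, 9.26 and 9.25 in muscle. The others were Mrps18c, with 3 of 7 probe sets called higher where the cluster was not called, Mrps10, with 5 of 7 called higher, and Mrpl22, with 0 of 8 called in either direction in wild-type mice. So 4 of the 5 were higher in wild-type muscle by some of their probe sets, while none of the 5 passed the threshold in wild-type mice by its cluster as deposited.

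For Mrpl30, a large-subunit protein with a bacterial counterpart, the cluster was called lower, reading 8.06, 8.17 and 8.49 in wild-type cerebellum and 7.49, 7.75 and 7.58 in wild-type muscle. One probe set, PS4615253, ran beside it at -0.66. Of its 7 probe sets 5 were called higher, by 1.74 to 2.04, and PS4345678 read 8.05, 8.32 and 8.28 in cerebellum against 10.11, 10.32 and 10.32 in muscle.

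Mrpl33, whose transcript is known to be alternatively spliced in human cells, had a cluster at -0.47 and 7 probe sets from -1.12 to 2.91, of which 4 were called higher and 1 lower. PS5209432 read 6.89, 6.77 and 7.46 in wild-type cerebellum and 9.55, 10.13 and 10.16 in wild-type muscle, while PS4384619 read 4.49, 4.63 and 4.52 against 3.68, 3.79 and 2.80. The tissues did not overlap in either, and the directions were opposite.

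The main cluster of Mrpl48, at -1.86, lay below all 14 of its probe sets, which ran from -1.07 to 0.86 with 4 called higher and 1 lower. Mrps25 and Mrpl41, in contrast, were lower at both levels. For Mrps25, 4 of 7 probe sets were called lower and 0 higher, the differences running from -2.02 to 0.07, and for Mrpl41 1 of 2 was called lower, the values being -1.66 and -0.09. Of the 7 clusters called lower in wild-type mice, Mrpl33, Mrpl30 and Mrpl48 were higher by the median of their probe sets, and Mrps25 and Mrpl41 were lower by it.

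**Figure D4:**
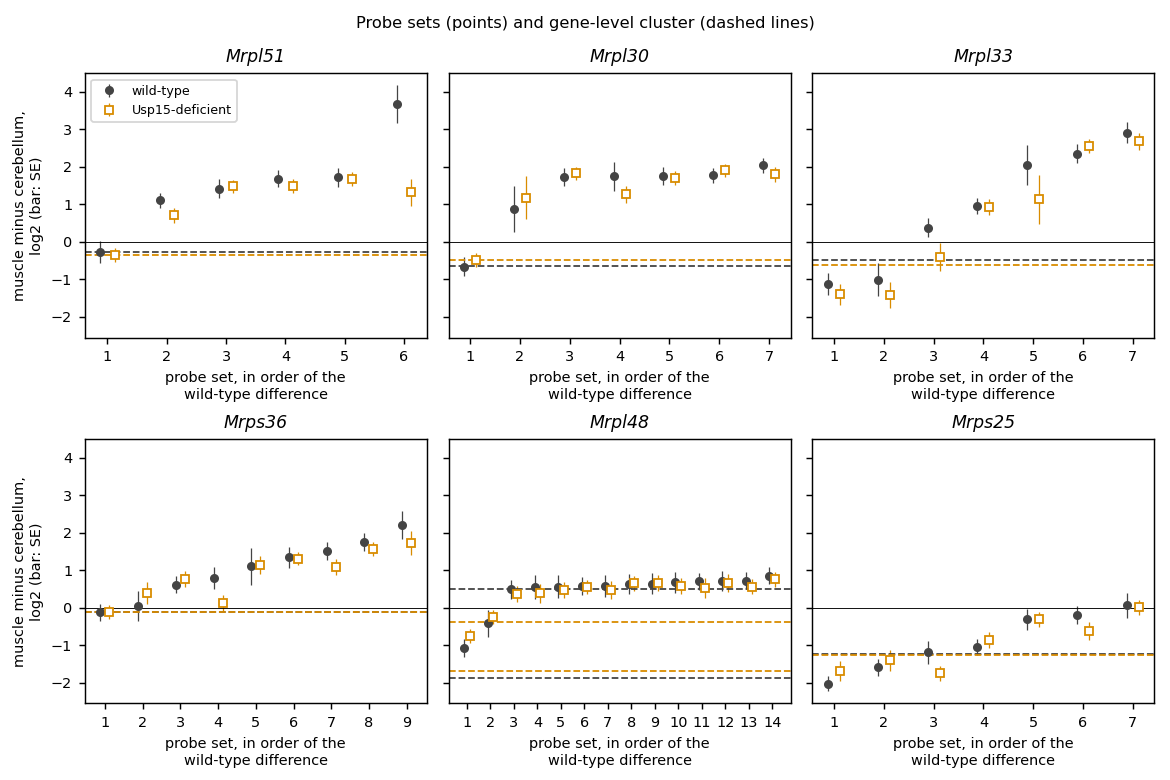
Muscle minus cerebellum (log2, with standard error) of every probe set of Mrpl51, Mrpl30, Mrpl33, Mrps36, Mrpl48 and Mrps25 in wild-type (filled circles) and Usp15-deficient arrays (open squares), ordered by the wild-type value, with the gene-level clusters as dashed lines. For Mrpl51 the cluster lies at -0.27 with 5 probe sets from 1.11 to 3.67 above it, whereas for Mrps25 the probe sets run from -2.02 to 0.07 around a cluster at -1.22.

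Probe sets were then compared with their own gene, as the probe set value minus the cluster value on the same array. Of 497 such member probe sets, 59 were relatively higher in wild-type muscle (8.0% of all 169412) and 41 relatively lower (7.38%), and in Usp15-deficient mice 79 (10.3%) and 65 (9.49%). Both genotypes called 47 relatively higher (5.64% of all), in 19 symbols, and 34 relatively lower (4.96%), in 18 symbols. Of the 47, 20 belonged to Mrpl17, Mrpl30, Mrpl33, Mrpl51 and Mrps36.

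The largest relative gains in wild-type muscle were PS5295130 of Mrpl51 (3.94), PS5209432 and PS4606467 of Mrpl33 (3.38 and 2.82), and PS4345678 and PS4488597 of Mrpl30 (2.67 and 2.42). These gains are relative to clusters that were themselves at -0.27, -0.47 and -0.64, where the medians of the probe sets of these genes were 0.95, 0.59 and 1.63 higher, so the ranking depends on the reference. For Mrpl30 those 2 probe sets themselves differed by 2.04 and 1.78. The largest relative losses were in genes whose cluster was not lower. PS4585775 of Mrpl46 read 7.42, 7.23 and 6.90 in wild-type cerebellum and 4.72, 4.53 and 3.81 in wild-type muscle, a relative difference of -3.05. The other 6 probe sets of Mrpl46 were not called in wild-type mice in the tissue comparison of the probe sets themselves. In Usp15-deficient mice 2 of its 7 probe sets were called lower in that comparison. The remaining relative losses of this rank were PS4670320 of Mrpl15 (-2.88), PS4480250 and PS4845229 of Mrps30 (-2.63 and -2.27) and PS4732853 of Mrpl32 (-2.28). For Mrps30, PS4480250 read 5.42, 5.32 and 5.70 in wild-type cerebellum and 2.60, 4.18 and 4.22 in wild-type muscle, where its cluster was higher in muscle. The exons that these probe sets report are not annotated in the sources used here.

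A further 7 Mrpl or Mrps symbols had probe sets but no single-symbol cluster. By the median of their probe sets, Mrpl23 was 2.02 higher in wild-type muscle, reading 8.19, 8.36 and 8.34 in cerebellum and 10.38, 10.31 and 10.27 in muscle. Mrps21 was 2.01 higher, with 7.58, 7.86 and 7.65 against 9.90, 9.47 and 9.74. Both differences were larger than that of any member cluster. Mrpl18, whose human counterpart has also been reported to carry an RNA into mitochondria, was 1.17 higher and Mrps22, mutated in a human cardiomyopathy, 0.49 higher. Mrpl27, with 1 probe set that read only 0.70 to 2.32 on the 12 arrays, was called lower (-1.06). In Usp15-deficient mice neither Mrps22 (0.37, adjusted p = 0.138, limma) nor Mrpl27 (-0.52, adjusted p = 0.0661, limma) was called. In wild-type mice Mrps33 (0.33) and Mrps6 (-0.09) were not past the threshold.

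Loss of Usp15 was the comparison the arrays were made for, and no member passed the threshold in it. In cerebellum 0 of 69 members were called (0.0% of all clusters were), the smallest adjusted p of a member being 0.996 by limma, and 1 member had an unadjusted p under 0.05, beside 825 of all clusters. In muscle 0 were called (0.0%), with 0 at an unadjusted p under 0.05 beside 720 of all clusters. The methods' t-test gave 4 members in cerebellum and 1 in muscle at an unadjusted p under 0.05, beside 973 and 654 of all 23332 clusters. After Benjamini-Hochberg adjustment it gave 0 members in each. Of the 556 probe sets of all 73 Mrpl and Mrps symbols, 0 were called in either tissue, where 0.000871% of all probe sets were. By the median of probe sets 0 symbols were called in muscle (0.00611% of all symbols were), and relative to their gene 0 of 497 member probe sets were called in cerebellum (0.00059%) or muscle (0.00118%). The median difference of the members was 0.05 in cerebellum, beside 0.04 for all clusters, and 0.01 in muscle, beside 0.01. The 95% confidence interval of the genotype difference lay within 1 log2 unit of 0 for 68 members in cerebellum and 68 in muscle, with a median half-width of 0.30 and 0.37.

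The genotypes did not overlap in cerebellum for 8 members that were all higher in Usp15-deficient arrays (5.85% of all clusters did so) and for 0 lower (3.05%). They were Mrpl35, Mrpl11, Mrpl10, Mrpl39, Mrpl24, Mrps2, Mrps14 and the second cluster of Mrpl48. Mrpl35 read 7.84, 8.02 and 8.19 on the wild-type arrays against 8.27, 8.26 and 8.29 on the Usp15-deficient ones, a difference of 0.26 with an interval from -0.01 to 0.53. The second cluster of Mrpl48 read 1.81, 1.81 and 1.58 against 2.55, 2.46 and 2.33, a difference of 0.71 with an interval from 0.45 to 0.97 and a limma adjusted p of 0.996. It was the dimmest member, and its wild-type muscle arrays read 1.09, 2.18 and 3.42. The other members of smallest p that were higher were Mrpl41 (0.27), Mrpl39 (0.16) and Mrps2 (0.13). Those lower were Mrpl22 (-0.26), Mrps34 (-0.17), Mrpl30 (-0.15), Mrps10 (-0.11) and Mrpl57 (-0.07).

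In muscle the genotypes did not overlap for 1 member higher, Mrpl49 (3.38% of all clusters), and 1 lower, Mrpl15 (2.97%). Mrpl49 read 6.88, 7.27 and 7.16 on the wild-type arrays against 7.39, 7.40 and 7.40 on the Usp15-deficient ones, a difference of 0.29 with an interval from -0.04 to 0.62. Mrpl15 read 8.02, 8.21 and 8.11 against 7.90, 7.94 and 7.98, a difference of -0.17. The member with the largest negative difference was Mrps28, at -0.32 with an interval from -0.81 to 0.17. Mrps24 stood at -0.20, Mrpl34 at -0.15 and Mrpl38 at -0.09, and of those higher Mrps23 stood at 0.19, Mrps16 at 0.18, Mrps14 at 0.14 and Mrpl43 at 0.14.

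**Figure D5:**
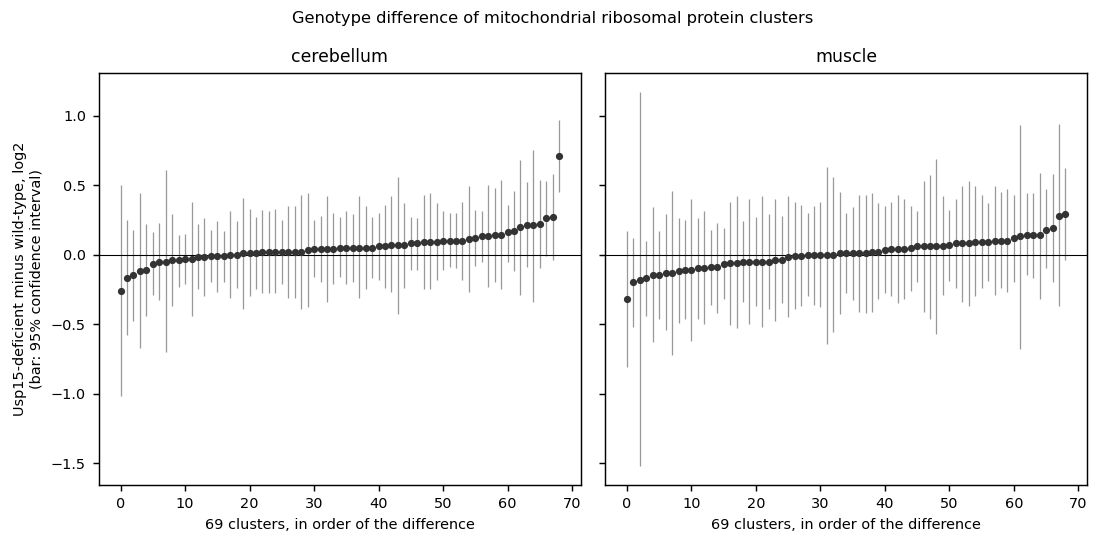
Usp15-deficient minus wild-type difference of the 69 clusters in log2, in cerebellum and in muscle, with 95% confidence intervals, ordered by size within each tissue. The values run from -0.26 to 0.71 in cerebellum and from -0.32 to 0.29 in muscle, and no member passed the adjusted threshold.

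The difference between the tissues in the effect of genotype was tested as an interaction over all 12 arrays, and 0 members were called (0.0% of all clusters), with 0 at an unadjusted p under 0.05 beside 679 of all clusters. The members of smallest p were Mrpl15 (-0.27, interval from -0.56 to 0.01, limma adjusted p = 1.0), Mrpl34 (-0.25), Mrpl35 (-0.27), the second cluster of Mrpl48 (-0.89) and Mrpl20 (-0.27). The interval lay within 1 log2 unit of 0 for 66 of the 69 members, and the median half-width was 0.44.

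The promoter letters described first were set beside the tissue difference. Of the 25 windows of members called higher in muscle in both genotypes, 18 held at least 1 of the 3 motifs (72.0%), 7 of them the YY1 letters (28.0%), and the median GC content was 60.3%. Of the 40 windows of the other members 17 held a motif (42.5%), 4 the YY1 letters, and the median GC content was 57.8%. Of all windows of the same length, 14.7% held a motif. Some windows of 1 symbol overlap each other, and the differences between these sets of windows were not tested.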

How the data were processed

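Total RNA of the 12 tissue samples was hybridised to Affymetrix exon arrays, and each array was deposited as 2 sets of log2 signals, for 23332 clusters and 229581 probe sets. Which background correction, normalization and software the authors used is not stated here, and the deposited log2 values were used unchanged, each array counted once. Groups were compared with lmFit and eBayes of limma 3.58.1 in R 4.3.3 (statmod 1.5.0 installed), two-sided, with only the 6 arrays compared in the fit (all 12 for the interaction) and Benjamini-Hochberg adjustment over all features, threshold 0.05. Symbols are those of the platform annotation, matched to RefSeq by gene number for 69 of 69 members. The fits were tested on simulated data.

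The members and lists were chosen with earlier results of these data known. Named were the members called in both genotypes with the largest differences, those of smallest p for genotype, those of smallest tissue difference, members of special role fixed as a list, and the leading genes of each list. Others, named for a cluster equal to 1 probe set, for probe sets called throughout or for arrays that do not overlap, were chosen after their values were seen. Mrpl44 of that list had no single-symbol cluster.

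The titles number the arrays 1 to 3 in each group. Deviations of same-numbered arrays from their group means correlated at 0.218, 0.203 and 0.103 between the genotypes in cerebellum, and not all above 0.1 in the other comparisons (-0.0654 to 0.305). A fit with this number as the replicate block called 0 members for genotype in cerebellum, as did the fit without it.

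Alternatives were quantile normalization, centring on the array median, all 12 arrays in the fit, the replicate block, a trended robust prior, leaving out the dimmest 25 percent, leaving out each array, the methods' t-test, 1 cluster per symbol, and the median of probe sets.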

Additional observations from a re-analysis of the deposited data

How the results depend on the processing

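With quantile normalization or centring on the array median, 48 and 54 members were higher in wild-type muscle and 4 and 2 lower, against 30 and 7 as deposited, and in Usp15-deficient muscle 56 were higher after centring and 2 and 3 lower, against 35 and 10. By the median of probe sets, chosen after seeing the data, 3 were lower in wild-type mice and 4 in Usp15-deficient ones. This median with quantile normalization gave 50 higher and 1 lower in wild-type mice and 1 lower in Usp15-deficient ones, and with centring 53 and 1, and 54 and 0. No share of all symbols is given beside these counts of scaled medians. For clusters, the share of all clusters called higher also rose under both scalings, as given above. How much of the rise in these counts comes from the scaling was not tested. Leaving out 1 array gave 27 to 37 higher and 4 to 6 lower in wild-type mice (4 lower without cerebellum replicate 1 or muscle replicate 1) and 27 to 37 and 6 to 9 in Usp15-deficient mice (6 lower without cerebellum replicate 3). Genotype and interaction calls stayed at 0 to 0.

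Probe sets relative to their gene moved more. In wild-type mice 94 were relatively higher with all 12 arrays, 39 with the replicate block and 22 against the probe set median (59 in the report), and 62 relatively lower after centring and 65 with all 12 arrays (41). In Usp15-deficient mice 43 were higher with the block and 37 against the probe set median (79), and 43 lower with the block (65). Leaving out 1 array gave 29 to 53 and 18 to 37 in wild-type mice, over 1.5 times fewer without cerebellum replicate 1 or 2 or muscle replicate 2 or 3, and 40 to 57 and 35 to 57 in Usp15-deficient mice, over 1.5 times fewer without any array but muscle replicate 1. The block gave 29 and 7 members in wild-type mice and 30 and 8 in Usp15-deficient ones and changed no call of genotype. By their titles, same-numbered arrays share only a number, in either tissue.

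Over the named genes and all settings, 1442 values kept their direction and side of the threshold, 34 came to pass it, 53 no longer passed and 54 changed sign; the cause was not tested. With quantile normalization, the wild-type tissue difference became 0.0 for Mrps26, 0.11 for Mrpl33, 0.19 for Mrpl55, 0.15 for Mrps12, 0.24 for Mrps36 and 0.24 for Mrps5, and the Usp15-deficient one 0.06 for Mrps26, 0.19 for Mrpl19, 0.17 for Mrpl55, 0.32 for Mrpl20, 0.46 for the second Mrpl48 cluster, 0.1 for Mrps12, 0.31 for Mrps36, 0.17 for Mrps5 and 0.62 for Mrps27. After centring, the wild-type difference became 0.04 for Mrpl30, 0.17 for Mrps26, 0.2 for Mrpl33, 0.24 for Mrpl1, 0.61 for Mrpl55, 0.22 for Mrps12, 0.55 for Mrps36 and 0.54 for Mrps5. The Usp15-deficient one became 0.18 for Mrpl30, 0.17 for Mrps26, 0.06 for Mrpl33, 0.12 for Mrpl1, 0.57 for Mrpl19, 0.51 for Mrpl55, 0.47 for Mrpl20, 0.28 for the second Mrpl48 cluster, 0.16 for Mrps12, 0.56 for Mrps36, 0.43 for Mrps5 and 0.67 for Mrps27. By the median of probe sets, the wild-type difference became 0.62 for Mrpl48, 1.63 for Mrpl30, 0.01 for Mrps26, 0.59 for Mrpl33, 0.09 for Mrpl1 and 0.43 for Mrpl55, and the Usp15-deficient one 0.55 for Mrpl48, compared with either cluster, 1.71 for Mrpl30, 0.34 for Mrps26, 0.25 for Mrpl33, 0.34 for Mrpl55, -0.15 for Mrps11 and 0.15 for Mrps27. The genotype difference became 0.1 for Mrps10 in cerebellum and -0.05 for Mrps16 in muscle. Leaving out 1 array moved that of Mrps34 in cerebellum between -0.26 and 0.01 (0.01 without wild-type cerebellum replicate 3), and for the second Mrpl48 cluster it moved the genotype difference in muscle between -0.75 and 0.42 and the wild-type tissue difference between -0.1 and 1.06, the signs turning without wild-type muscle replicate 3. The number of arrays, 3 a group, limits the precision.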
